A study of Saccharomyces cerevisiae with 24 samples.

Results

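Wild-type Dim1 cells (WT) of the yeast Saccharomyces cerevisiae were compared after 2 h in medium without sulfur and during log-phase growth on 1 mM methionine as the sulfur source. The samples came from the WT strains 172 and 600 of the CEN.PK background, called isolates here, each sampled in both media. Every sample gave an mRNA library and a library of ribosome footprints, the short RNA pieces that ribosomes shield from nuclease, so that 8 of the 24 libraries of the series belong to WT. The other 16 libraries come from strains that carry the Dim1 variants E85Q or D87E. Dim1 adds methyl groups to a pair of adenosines of 18S rRNA, and the study's title ties sulfur-dependent translation to the multiplicity of this methylation. Of 6304 entries with values, 4888 were tested, those whose level in RPKM (reads scaled by gene length and by library total) averaged 5 or more in each of the mRNA and footprint tables. In the text, values of 2 libraries of a group are always given for isolate 172 first and isolate 600 second, and changes are log2 differences with the standard error (SE) of the limma fit (n = 2 in each medium).

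Sulfur enters yeast protein as methionine and cysteine, and the methyl donor S-adenosylmethionine (SAM) and the thiol glutathione are made from the same pool. When sulfur runs out, the activator Met4 drives the genes that take up and reduce sulfate, while lower activity of the growth-promoting kinase complex TORC1 lowers the making of ribosomes and favours autophagy, the delivery of cell contents to the vacuole for breakdown. Yeast is also known, from work on cadmium stress, to exchange some abundant enzymes for isozymes that hold fewer sulfur residues. Protein sequences were not used here, so residue content was not counted.

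The reads behind the scaling numbered 22.3 to 32.3 M (M, mega) in the starved libraries and 24.3 to 57.6 M in those with methionine, with the deepest being the footprint libraries with methionine. Between the isolates the starvation responses had a Pearson r of 0.9897 over 4888 genes for mRNA, 0.9874 for footprints and 0.8516 for translational efficiency (TE, log2 footprints minus log2 mRNA of the same sample). These correlations are across genes, which are not independent replicates. The summed mRNA level of 6 a-cell marker genes was 1116 and 1124 RPKM when starved, against 736 and 710.1 RPKM with methionine. That of 4 alpha-cell marker genes was 27.8 and 25.2 RPKM when starved, against 8.33 and 8.68 RPKM with methionine. Both isolates thus had the marker pattern of a cells in both media.

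After 2 h without sulfur most of the genome had shifted, and mRNA and footprints mostly moved together. A gene was called where limma, fitted to log2(RPKM + 1), gave a Benjamini-Hochberg adjusted p below 0.05 over all tested genes. In mRNA 4246 genes were called (86.9%): 2943 rose (60.2%) and 1303 fell (26.7%), of which 1099 (22.5%) and 622 (12.7%) moved at least 2-fold. In footprints 4078 were called (83.4%), of which 2509 rose (51.3%) and 1569 fell (32.1%). In TE 2603 were called (53.3%), of which 816 rose (16.7%) and 1787 fell (36.6%). RPKM is relative to the library: fewer cells of a kind and less RNA per cell cannot be told apart in these bulk samples. The median gene itself stood at 0.40 in mRNA, 0.23 in footprints and -0.12 in TE (log2, starved minus methionine). Median-centring of the libraries gave 1973 rises (40.4%) and 2025 falls (41.4%) in mRNA, 1988 (40.7%) and 1980 (40.5%) in footprints, and 1432 (29.3%) and 1033 (21.1%) in TE. Medians of gene lists are therefore given relative to the median gene, and counts of a list are followed by the centred counts where these differ enough to matter. Counts of a list are to be read beside the shares over all tested genes above. A list near those shares does not stand out by its counts. All 4078 genes called in footprints and 4246 called in mRNA had the same sign in both isolates. The starved and methionine values did not overlap in 4245 of the 4246 genes called in mRNA and in all 4078 called in footprints. The calls rest on these same values, so shared signs and separation follow largely from the calls and add no separate support. The largest changes named below were also chosen to be separated, so their separation is fixed by that choice. Across genes, the footprint change followed the mRNA change with a Pearson r of 0.9424 and a slope of 0.9074. In 374 genes both rose and TE rose too, in 714 both rose while TE fell, and in 441 mRNA rose without a call in footprints. The calls were opposed in some genes: in 178 mRNA rose while footprints fell, and in 29 mRNA fell while footprints rose.

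**Figure D1:**
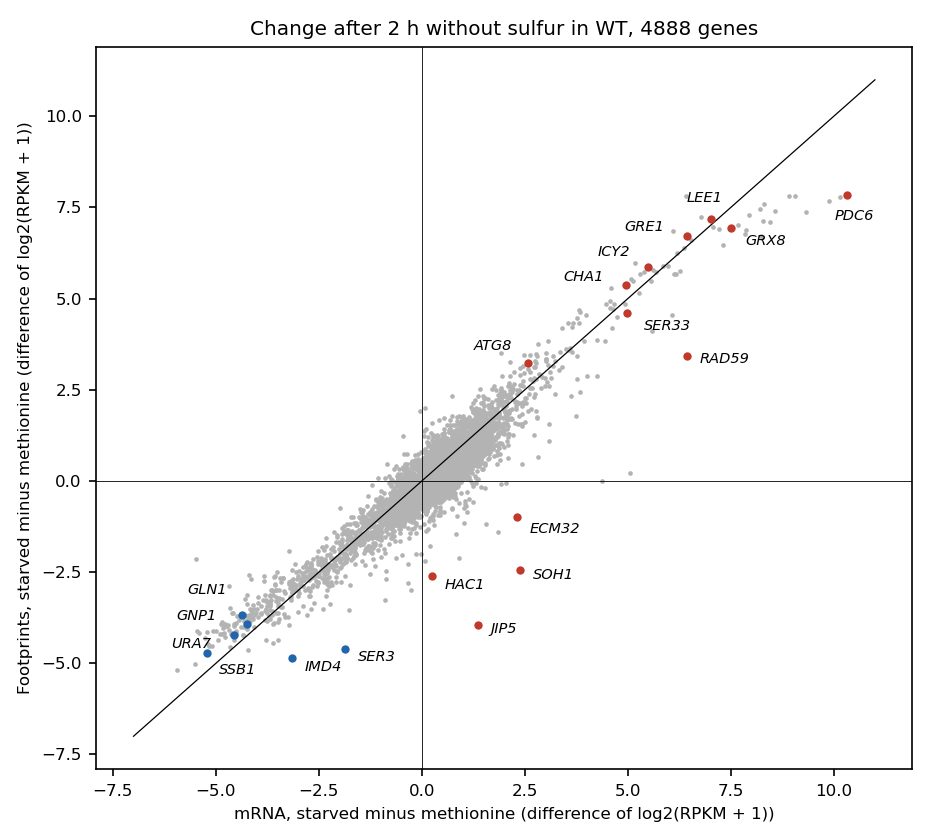
Change of mRNA (horizontal axis) and of ribosome footprints (vertical axis) after 2 h without sulfur in WT, as starved minus methionine differences of log2(RPKM + 1), for 4888 genes; the diagonal marks equal change. Most genes lie along the diagonal, PDC6 stands at the far right, and SOH1, JIP5, ECM32 and HAC1 lie far below it.

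Outside the sulfur, iron and ribosome groups, PDC6 had the largest rise in mRNA and in footprints. PDC6 encodes a minor pyruvate decarboxylase, which makes acetaldehyde on the way to ethanol, and its mRNA stood at 4809 and 5438 RPKM in starved cells, against 2.95 and 3.07 RPKM with methionine. Its footprints stood at 7778 and 8662 RPKM when starved and at 23 and 51.3 RPKM with methionine, which put it at rank 13 of all footprint levels when starved and at rank 2157 with methionine. The changes were 10.32 (SE 0.17, adjusted p = 4.6e-12) in mRNA and 7.86 (SE 0.35) in footprints on the log2 scale. The sulfur gene YCT1 had a similar footprint rise (7.82) beside a smaller mRNA rise (8.91). Its footprints were at 6665 and 8168 RPKM when starved, against 21.2 and 47.1 with methionine. Whether a floor in the methionine footprint libraries limits the footprint and TE changes of such genes was not tested. GRX8, for a glutaredoxin-like protein, had 1135 and 1164 mRNA RPKM when starved, against 4.81 and 5.95 with methionine, a difference of 7.5 (SE 0.18). FMO1, whose flavin monooxygenase oxidizes thiols, had 605 and 639.8 RPKM when starved and 5.91 and 5.62 with methionine. Another 3 of the 10 largest mRNA rises have little or no assigned function: YKL068W-A (7.06, SE 0.12), the zinc-finger gene LEE1 (7.02, SE 0.13) and YIR042C (6.09, SE 0.13). The others were GRE1, a hydrophilin gene of the stress response (6.45, SE 0.56), the recombination gene RAD59 (6.43, SE 0.06), YLL058W (6.18, SE 0.09) and CRF1, a corepressor of ribosomal protein genes (6.08, SE 0.26). YLL058W lies among genes for sulfur use on chromosome XII, as given below, and counts as outside by the grouping used here. In footprints, GTO1, a glutathione transferase gene of the omega class (5.97, SE 0.19), ICY2 (5.88, SE 0.17) and BDH2 (5.79, SE 0.26) joined the list.

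The largest falls outside the lists of those groups included genes for a ribosome-bound chaperone, nucleotide and glutamine synthesis, amino acid uptake and nucleolar proteins. SSB1, for a chaperone that binds chains leaving the ribosome, had 53.7 and 41.8 mRNA RPKM when starved, against 1782 and 1834 RPKM with methionine, and fell by 5.22 (SE 0.29, adjusted p = 4e-08). URA7, for CTP synthase, had 4.35 and 4.64 RPKM when starved and 122 and 136 with methionine and fell by 4.56 (SE 0.15). Glutamine synthetase mRNA (GLN1) was at 50.7 and 43.4 RPKM, against 1009 and 978 RPKM with methionine. The isopropylmalate isomerase gene LEU1, an iron-sulfur enzyme of leucine synthesis, was at 40.6 and 36.4 RPKM in starved cells and at 717 and 678 RPKM with methionine. The amino acid permease genes GNP1 (-4.25, SE 0.14) and DIP5 (-4.06, SE 0.05) and the nucleolar genes RPA49 (-4.08, SE 0.11), NOP56 (-4.07, SE 0.11) and NOP1 (-4.0, SE 0.17) belonged to the same 10. These nucleolar genes serve the making of ribosomes and count as outside only because the ribosome lists used here do not hold them. The tenth, YBR191W-A (-5.48, SE 0.27), is a short open reading frame beside the ribosomal protein gene RPL21A, with 11.6 and 13 mRNA RPKM when starved and 511 and 688 with methionine, and its reads may be hard to tell from those of its neighbour. In footprints the 10 largest falls included IMD4, for IMP dehydrogenase (-4.86, SE 0.20), the elongation factor 3 gene YEF3 (-3.89, SE 0.17), the RNA-binding protein gene SRO9 (-3.87, SE 0.20), the malic enzyme gene MAE1 (-3.80, SE 0.24) and the deubiquitinase inhibitor gene RFU1 (-3.73, SE 0.11).

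The footprint libraries give the density of ribosomes on messages, since RPKM is scaled by gene length. Shares of summed footprint RPKM are therefore shares of density and not of ribosomes. Cytosolic ribosomal protein genes held 3.72% and 2.57% of summed footprint RPKM in starved cells, against 30.7% and 32.2% with methionine. The 6 sulfur lists together held 11.5% and 12.6% of footprint RPKM when starved, against 1.25% and 1.2% with methionine. Cell wall genes held 7.62% and 7.17% when starved, against 4.13% and 4.06% with methionine, and oxidant defence genes 3.14% and 3.33%, against 1.32% and 1.32%. Histone genes held 2.52% and 2.25% in starved cells and 1.08% and 1.04% with methionine. Vacuolar proteases and fusion factors held 0.977% and 1.07%, against 0.25% and 0.251%. The sugar breakdown enzymes were at 7.75% and 6.87% when starved, against 13.8% and 13.2% with methionine. A share can rise because others shrink: without ribosomal protein genes in the sum, the lists with a higher share in both starved libraries numbered 15 of 49 in footprints, against 29 with them.

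**Figure D2:**
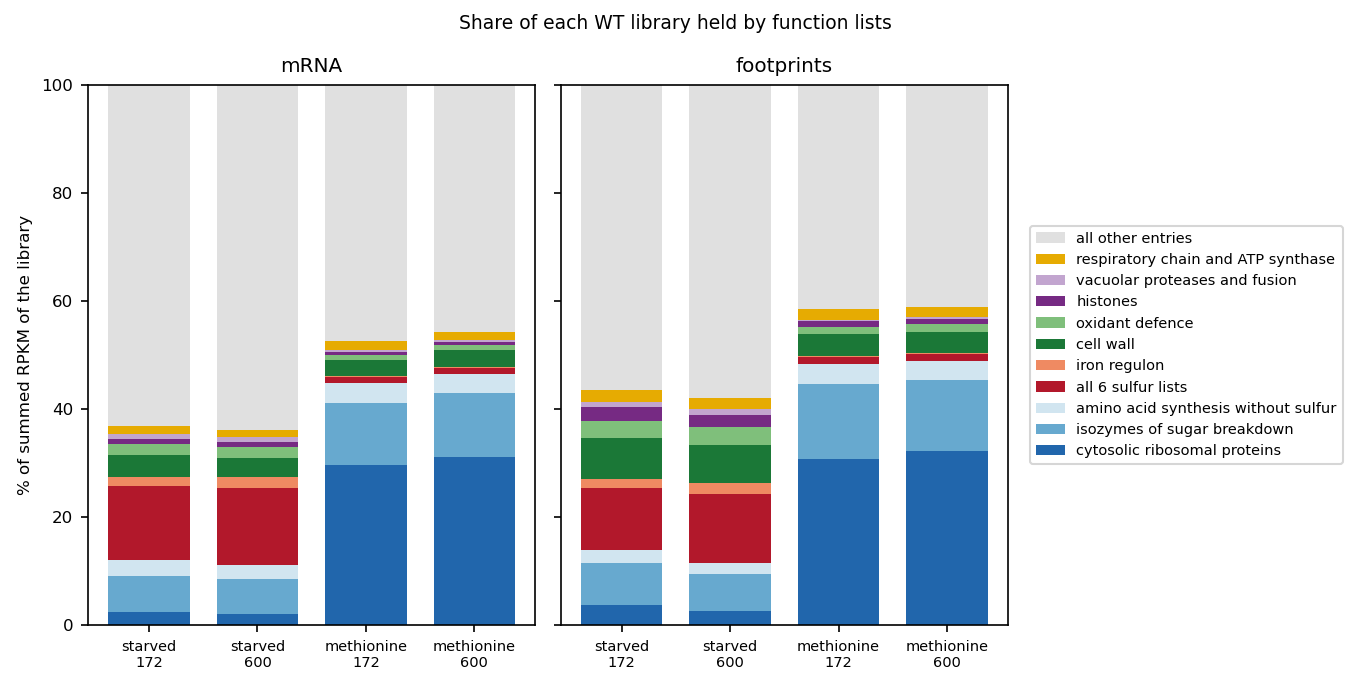
Percent of summed RPKM (vertical axis) held by 10 gene lists that share no gene, and by all other entries, in each WT library of mRNA (left) and footprints (right). Ribosomal protein genes fill 3.72% and 2.57% of the starved footprint bars, against 30.7% and 32.2% of the footprint bars with methionine, and the sulfur lists, cell wall and oxidant defence take more room in the starved bars.

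Of the 100 entries with the highest footprint levels in starved cells, 23 were also among the 100 highest with methionine. CCW12, for an abundant mannoprotein of the cell wall, ranked 1 in starved cells and 3 with methionine, with 24736 and 22671 footprint RPKM when starved and 16933 and 17494 with methionine, a difference of 0.46 (SE 0.23, adjusted p = 0.084) that did not pass, though it did where only genes averaging 20 RPKM or more were tested (adjusted p = 0.043, limma). It was followed by YDR524C-B, HOR7 and CWP2, which ranked 7, 34 and 12 with methionine. MET17 ranked 5, ICY2 ranked 6 and CYS3 ranked 7 when starved, against ranks of 524, 608 and 362 with methionine. YKL068W-A, an uncharacterised gene, ranked 19 when starved and 1948 with methionine. TDH3, for the main glyceraldehyde-3-phosphate dehydrogenase, ranked 12 when starved and 1 with methionine. The 30 highest in starved cells also held the peroxidase genes AHP1 and TSA1 at ranks 10 and 24, the small heat-shock gene HSP26 at rank 23 and the membrane protein genes NCE102, ZEO1 and PMP3.

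Paralogs of several enzymes shifted in share, and some changed places. PDC6 made up 67.8% and 75.3% of the summed footprint RPKM of the 3 pyruvate decarboxylase genes in starved cells, against 0.13% and 0.296% with methionine, and PDC1 accounted for nearly all of the rest. PDC1 fell by 2.76 (SE 0.15) in mRNA to 1632 and 1372 RPKM when starved, against 9913 and 10344 RPKM with methionine. Among the enolases, ENO1 stood at 4251 and 3719 footprint RPKM in starved cells and 1309 and 1244 with methionine, while ENO2 stood at 3834 and 2867 when starved and 14703 and 14057 with methionine. The share of ENO1 in the pair was thus 52.6% and 56.5% when starved, against 8.17% and 8.13%. In glucose phosphorylation GLK1 took 51.1% and 55.2% of the sum of GLK1, HXK1 and HXK2 when starved, against 15.5% and 16.1% with methionine, as HXK2 mRNA changed by -1.56 (SE 0.07) and GLK1 mRNA by 1.85 (SE 0.15). GSP2 and GSP1 encode the Ran GTPase of nuclear transport, and GSP2 took 50.9% and 53.5% of their footprints when starved, against 5.08% and 5.02%. SER33 and SER3 encode phosphoglycerate dehydrogenase, the first step of serine synthesis, and the share of SER33 was 98.9% and 99.4% when starved, against 16.1% and 16.8%. For acetaldehyde dehydrogenase the share of mitochondrial ALD4 beside cytosolic ALD6 was 29.5% and 31.2%, against 6.16% and 6.08% with methionine. URA8 footprints did not pass the test (0.01, SE 0.06, adjusted p = 0.86; -0.20 and called after centring), while URA7 fell, so that URA8 made up 78.4% and 87.8% of CTP synthase footprints when starved, against 19.5% and 17.9% with methionine. All of these shares were separated between the media in both isolates.

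**Figure D3:**
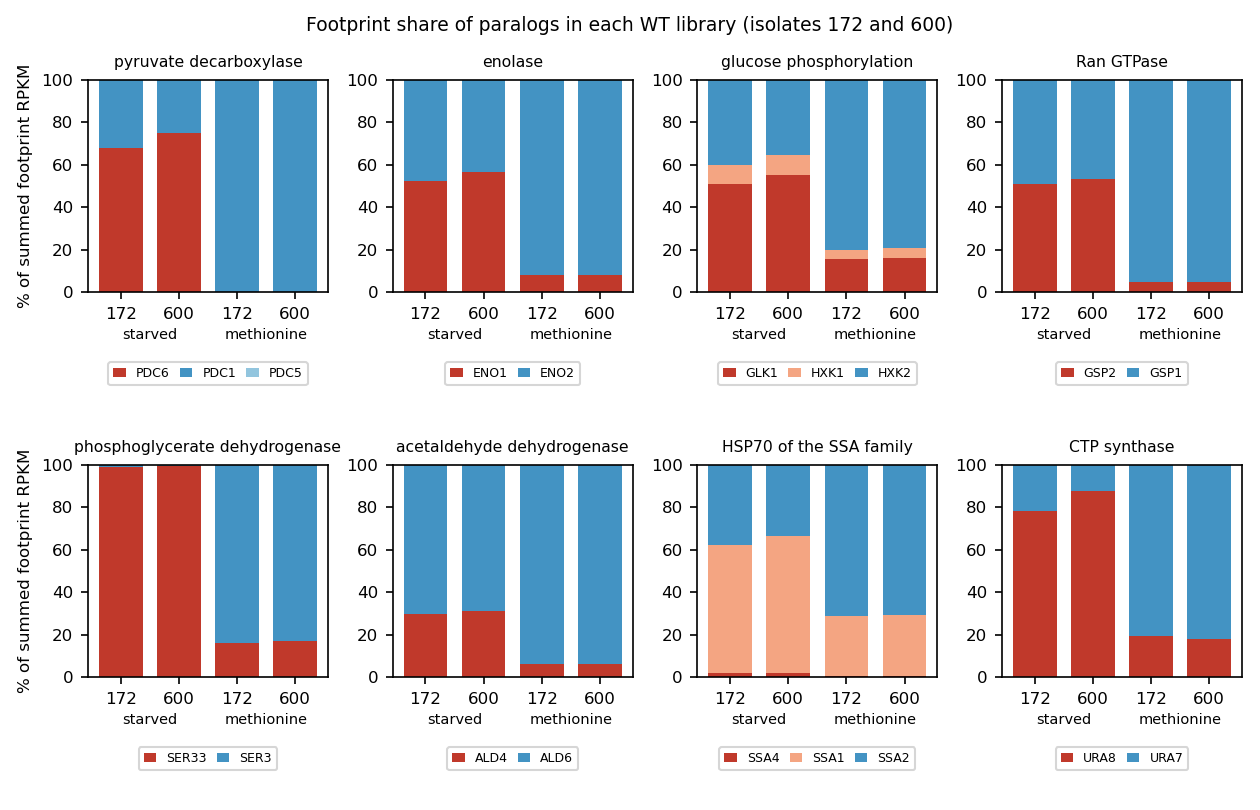
Share of each paralog (vertical axis, percent of the summed footprint RPKM of the genes shown) in the starved and methionine libraries of isolates 172 and 600 for 8 enzymes or chaperones. PDC6 fills 67.8% and 75.3% of the starved bars, against 0.13% and 0.296% of those with methionine, and ENO1, GLK1, GSP2, SER33, ALD4, SSA1 and URA8 gain share as well.

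Other paralogs shifted as well, some of them less completely. TDH1 rose by 1.06 (SE 0.19) in mRNA, and TDH2 and TDH3 fell by 2.56 (SE 0.12) and 1.53 (SE 0.17), yet TDH3 still held 81.9% and 79.6% of the footprints of the trio when starved, against 82.8% and 84%. PYK2 rose by 1.21 (SE 0.08) and remained below 2% of pyruvate kinase footprints (1.55% and 1.87% when starved, against 0.268% and 0.287%) beside CDC19. SOL4, for phosphogluconolactonase, took 65.4% and 71.2% of the SOL3 and SOL4 footprints in starved cells, against 5.5% and 5.46%. The HSP70 chaperone SSA1 took 60.4% and 64.3% of the footprints of SSA1, SSA2 and SSA4 when starved, against 28.3% and 29%, and SSA2 fell by 1.58 (SE 0.18) in footprints. UBC5 took 23% and 23.1% beside UBC4, against 7.86% and 8.14%. Paralogs such as ENO1 and ENO2, TDH2 and TDH3 or SSA1 and SSA2 are close in sequence, and how reads matching both copies were counted is not given in the sources used here. In the list of sugar breakdown enzymes as a whole, 13 of 34 genes rose and 19 fell in mRNA.

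Reserve carbohydrate genes rose together. Of 17 tested genes of trehalose and glycogen metabolism, 16 rose in mRNA and 0 fell, and 16 rose and 1 fell in footprints, with relative medians of 1.26 and 1.28. Genes for synthesis and for breakdown rose together. Glycogen phosphorylase mRNA (GPH1) stood at 62.2 and 71.9 RPKM when starved, against 8.69 and 7.83 RPKM with methionine (2.88, SE 0.21), and glycogen synthase mRNA (GSY2) at 115 and 124 RPKM, against 23.4 and 21.8 RPKM. The trehalose-6-phosphate synthase gene TPS1 rose by 1.66 (SE 0.11) and the trehalase gene NTH2 by 1.33 (SE 0.09). The branching enzyme gene GLC3 rose in mRNA (1.56, SE 0.11) with a fall in TE (-0.80, SE 0.09), and IGD1, for an inhibitor of glycogen debranching, gained TE (0.53, SE 0.19), a call lost with the isolate as a block (adjusted p = 0.067, limma) and with any 1 library left out. The minor phosphoglucomutase gene PGM1 was the member that did not pass in mRNA (-0.04, a called fall after centring), whereas PGM2 rose by 2.77 (SE 0.18). In the pentose phosphate pathway, ZWF1, the entry enzyme, rose by 2.42 (SE 0.07) in mRNA, with 963 and 975 RPKM when starved and 185 and 175 with methionine, and RKI1, for ribose-5-phosphate isomerase, fell by 3.70 (SE 0.19). Of 8 tested hexose transporter and regulator genes, HXT5 rose by 3.11 (SE 0.27) and HXT4 fell by 3.20 (SE 0.10).

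**Figure D4:**
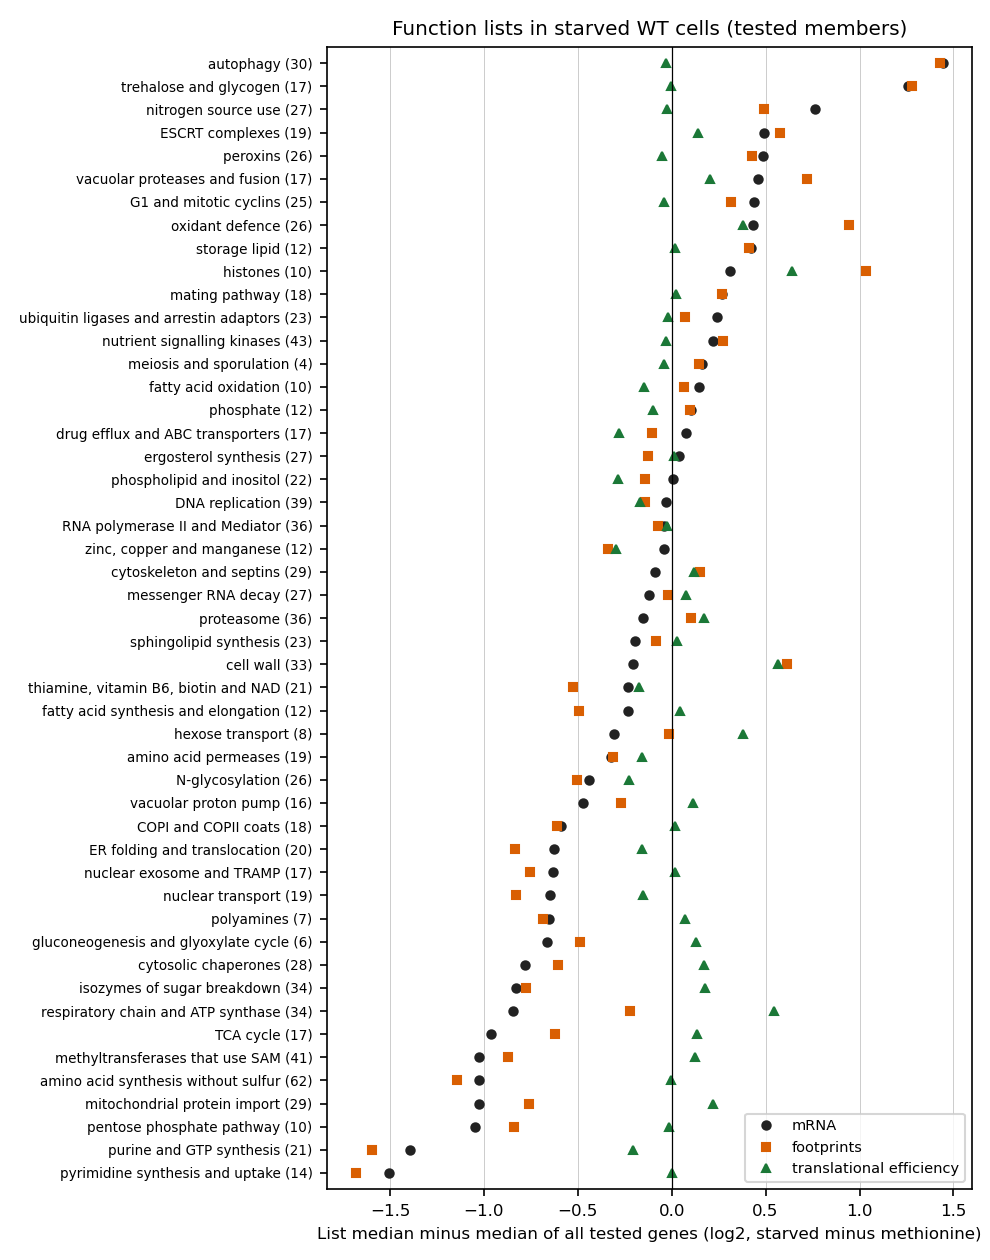
Median starvation response of 49 function lists minus the median of all tested genes (horizontal axis, log2, starved minus methionine) for mRNA, footprints and translational efficiency; the number of tested members stands in parentheses. In mRNA and footprints autophagy and trehalose and glycogen genes lie highest and pyrimidine and purine synthesis lowest, and cell wall, histone, oxidant defence and respiratory chain genes have footprint medians to the right of their mRNA medians.

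The routes to the vacuole rose with them. Of 30 autophagy genes, 29 rose and 1 fell in mRNA (relative median 1.44). The receptor genes ATG32, for mitochondria, and ATG36, for peroxisomes, rose by 2.74 (SE 0.08) and 2.02 (SE 0.08). ATG9, for the membrane protein that seeds the autophagosome, had 114 and 119 mRNA RPKM when starved, against 8.15 and 7.35 with methionine, and 22.6 and 22.2 footprint RPKM, against 5.71 and 5.78, and its TE fell by 1.95 (SE 0.10). ATG8, whose lipid-linked product coats the membrane, gained TE (0.67, SE 0.11) and had 615 and 639 footprint RPKM when starved and 62.9 and 67.8 with methionine. All 17 tested genes of vacuolar proteases and vacuole fusion rose in mRNA (14 after centring). The protease B gene PRB1 had 3194 and 3632 footprint RPKM when starved, against 391 and 409.6, a difference of 3.09 (SE 0.19). Carboxypeptidase Y (PRC1) and proteinase A (PEP4) rose by 2.13 (SE 0.09) and 1.78 (SE 0.10) in footprints. All 19 genes of the ESCRT complexes, which sort membrane proteins into the vacuole, rose in mRNA (15 rises and 3 falls after centring) and all rose in footprints, with relative medians of 0.49 and 0.58. The vacuolar proton pump had a different pattern, with 1 rise and 7 falls among 16 genes, or 1 and 15 after centring. Among ubiquitin genes UBI4, the polyubiquitin gene, rose by 2.18 (SE 0.14) and the ligase gene SAN1 fell by 0.68 (SE 0.09). Proteasome genes depended on scaling: 25 of 36 rose and 1 fell, but after centring 2 rose and 18 fell.

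Genes for mitochondrial proteins mostly fell in mRNA, and most of those for the respiratory chain gained TE. Of 34 nuclear genes of the respiratory chain and ATP synthase, 4 rose and 25 fell in mRNA, against 10 rises and 10 falls in footprints (8 and 17 after centring). In TE 24 rose and 0 fell. QCR7, for a subunit of complex III, had 334 and 284 mRNA RPKM when starved, against 556 and 585, and 602 and 526 footprint RPKM, against 533 and 534 with methionine. Its TE rose by 0.96 (SE 0.09, adjusted p = 1.4e-05). CYC7 and COX5B, known as the isoforms used at low oxygen, rose by 2.37 (SE 0.19) and 1.78 (SE 0.15) in mRNA, and their partners CYC1 and COX5A fell by 1.38 (SE 0.16) and 0.42 (SE 0.09). CYC1 still held 96.3% and 94.9% of cytochrome c footprints when starved, against 99.7% and 99.6% with methionine. TCA cycle genes had 2 rises and 13 falls among 17 in mRNA, with the succinyl-CoA ligase gene LSC2 at 1.06 (SE 0.08). Genes of mitochondrial protein import had 4 rises and 23 falls among 29, or 0 and 26 after centring: the motor chaperone gene SSC1 fell by 1.68 (SE 0.07), and TIM8, a carrier of membrane proteins between the mitochondrial membranes, gained 1.01 (SE 0.20) in TE. Mitochondrial ribosomal protein genes had 3 rises and 57 falls among 74 (relative median -0.96).

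Genes for nitrogen use moved in both directions. Of 27 genes for nitrogen sources, 19 rose and 6 fell in mRNA (17 and 7 after centring, relative median 0.76), against 60.2% and 26.7% of all tested genes. CHA1, for the deaminase that uses serine and threonine as nitrogen sources, had 160.2 and 176 mRNA RPKM when starved, against 5.05 and 3.88 RPKM with methionine (4.96, SE 0.17, adjusted p = 1.2e-09). DAL80, a GATA-type repressor of nitrogen catabolism, had 31.5 and 33.9 RPKM, against 0.217 and 0 RPKM. GAT1, an activator of the same genes, and MEP2, the ammonium permease gene, rose by 2.46 (SE 0.08) and 2.12 (SE 0.08). Of ammonium assimilation, a group picked after values were seen, GLN1 (-4.38), the glutamate dehydrogenase gene GDH1 (-2.69, SE 0.08) and the glutamate synthase gene GLT1 (-2.51, SE 0.15) fell. Amino acid permease genes gave 9 rises and 9 falls among 19. The proline permease gene PUT4 rose to 54.4 and 56 RPKM when starved, against 6.24 and 5.64 with methionine, and the vacuolar exporter genes AVT7, AVT6 and AVT4 rose by 2.08, 1.64 and 1.31. The broad permease genes AGP1 (-3.49, SE 0.07), BAP2 (-3.64, SE 0.11), GNP1 and DIP5 fell, and GAP1 did not pass (0.08, SE 0.07, adjusted p = 0.3; -0.33 and called after centring). Synthesis of amino acids other than methionine and cysteine had 11 rises and 41 falls among 62 (relative median -1.02). SER3 was at 24.7 and 11.8 footprint RPKM when starved, against 431 and 447, a fall of 4.6 (SE 0.27) beside one of 1.85 (SE 0.09) in mRNA.

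Nucleotide synthesis held the lowest mRNA and footprint medians of the 49 lists outside the sulfur, iron and ribosome groups. Of 14 pyrimidine genes, 12 fell and 2 rose (relative median -1.51 in mRNA and -1.68 in footprints). The URA2 gene, whose product starts the pathway, lost TE (-1.30, SE 0.08) on top of mRNA (-1.25, SE 0.09). URA10, the minor orotate phosphoribosyltransferase gene, rose by 2.31 (SE 0.13). Of 21 purine and GTP synthesis genes, 4 rose and 15 fell, or 2 and 17 after centring (relative median -1.40), and in footprints 2 rose and 18 fell. IMD3 and IMD4, the IMP dehydrogenase genes at the branch to GTP, stood at 35.9 and 28.7 and at 4.6 and 2.18 footprint RPKM when starved, against 409 and 410.0 and 114 and 129 with methionine. GUA1, for GMP synthetase, fell by 3.38 (SE 0.14) in mRNA.

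Genes for enzymes that spend SAM on methylation went both ways. Of 41 tested methyltransferase genes, 14 rose and 23 fell in mRNA, or 8 and 28 after centring (relative median -1.02). Among the falls were rRNA and tRNA enzymes: fibrillarin (NOP1) at 13.8 and 13.7 mRNA RPKM when starved, against 238 and 229.9, NOP2 at -3.19 (SE 0.12), the tRNA enzyme gene TRM11 at -2.99 (SE 0.13) and DIM1 itself at -2.16 (SE 0.06). Among the rises were TMT1, for methylation of trans-aconitate (2.37, SE 0.11), the release-factor methyltransferase gene MTQ1 (1.54, SE 0.07) and the histone methyltransferase genes SET2 (0.67, SE 0.06) and SET1 (0.47, SE 0.05, not called after centring). SET1 lost TE (-0.60, SE 0.10), as did SET2 (-0.76, SE 0.09), and their footprints did not pass, though both were called falls after centring.

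Most cell wall genes gained TE. Over all genes the TE change was graded by coding length, as given below, and the part of length in the cell wall values was not tested. In mRNA 19 of 33 rose and 11 fell (12 and 16 after centring), in footprints 22 rose and 4 fell, and in TE 20 rose and 4 fell, with a relative TE median of 0.56. CWP2, for a mannoprotein of the wall, had 4723 and 3731 mRNA RPKM when starved, against 2989 and 3343, and 18775 and 15394 footprint RPKM, against 5404 and 5239 with methionine. Its TE rose by 1.27 (SE 0.17, adjusted p = 1.8e-04). The related CWP1 rose by 2.57 (SE 0.08) in mRNA. The TE of PIR1, HSP150 and SCW4, which encode secreted wall proteins, rose by 0.89 (SE 0.15), 0.90 (SE 0.19) and 0.83 (SE 0.12). Among the 4 TE falls were the glucan synthase gene GSC2 at -0.47 (SE 0.08) and the chitin synthase gene CHS3 at -0.46 (SE 0.08). UTR2, a chitin transglycosylase gene, had the largest fall in mRNA (-1.49, SE 0.11).

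Further back in the secretory pathway the signs were mostly negative. Of 20 genes for folding and translocation in the endoplasmic reticulum, 3 rose and 11 fell in mRNA (1 and 17 after centring) and 1 rose and 14 fell in footprints. HAC1, for the activator of the unfolded protein response, did not pass in mRNA (0.26, SE 0.14, adjusted p = 0.11), but its footprints were at 2.36 and 1.07 RPKM when starved, against 11.8 and 19.2 with methionine, and its TE fell by 2.87 (SE 0.83, adjusted p = 0.014). That call was lost with a pseudocount of 10 (-1.36, adjusted p = 0.12, limma) and without isolate 600 in either medium, and HAC1 mRNA was called without isolate 172 with methionine (0.45, adjusted p = 0.017). HAC1 mRNA is known to be spliced when the response is on, and the tables give it as 1 entry. KAR2, the HSP70 of this compartment, fell by 1.11 (SE 0.08) in footprints and PDI1, for disulfide isomerase, by 0.85 (SE 0.10). COPI and COPII coat genes had 2 rises and 10 falls among 18 in mRNA, or 0 and 16 after centring. N-glycosylation genes had 10 rises and 11 falls among 26, or 3 and 16 after centring, with the dolichol phosphate mannose synthase gene DPM1 at -1.31 (SE 0.07).

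Lipid and peroxisome genes moved in both directions. Of 26 peroxin genes, which build peroxisomes, 22 rose and 1 fell (21 and 3 after centring), with PEX10 at 2.34 (SE 0.07) and PEX2 at 2.15 (SE 0.07). Storage lipid genes had 10 rises and 1 fall among 12, or 7 and 4 after centring, led by DGA1, for the last step of triacylglycerol synthesis (1.5, SE 0.11). The fatty acid elongase genes ELO3 and ELO2 fell by 2.08 (SE 0.08) and 1.81 (SE 0.08), and the desaturase gene OLE1 rose by 0.93 (SE 0.10). Phospholipid and inositol genes had 2 rises and 17 falls in TE among 22, or 3 and 11 after centring, and OPI3, for a phospholipid methyltransferase that uses SAM, did not pass in mRNA (0.14; -0.27 and called after centring) and fell in footprints (-0.83, SE 0.13). Ergosterol genes depended on scaling, with 18 rises and 2 falls, or 8 and 9 after centring.

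Cell cycle and signalling genes mostly rose in mRNA. Among 25 cyclin and cell cycle control genes 23 rose and 0 fell (18 and 3 after centring). The largest called rise of this list was that of the cyclin gene PCL5 (1.65). The brakes of the cycle SIC1, WHI5 and CDH1 rose by 1.33 (SE 0.06), 1.07 (SE 0.13) and 1.38 (SE 0.08) in mRNA, and CDH1 had the largest called TE fall of the list (-0.69). The G1 cyclin gene CLN2 did not pass in mRNA (-0.08, or -0.48 and called after centring) and fell in footprints (-0.53, SE 0.08). PCL1, a cyclin gene of the Pho85 kinase, gained TE (0.69, SE 0.09). Of 43 nutrient signalling genes, 37 rose and 3 fell (26 and 7 after centring). Among protein kinase A genes TPK2 rose by 1.44 (SE 0.09), while TPK3 fell by 0.48 (SE 0.07). IML1 and NPR2, of the SEACIT complex that restrains TORC1, rose by 1.82 (SE 0.06) and 1.32 (SE 0.06). GCN4, the activator of amino acid synthesis genes, fell in mRNA (-1.06, SE 0.10) and gained TE (1.14, SE 0.25), and its footprints did not pass (0.08). DNA replication genes depended on scaling (26 rises and 3 falls among 39, or 13 and 16 after centring).

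Histone genes rose in both assays. Of 10 tested, 7 rose in mRNA, 9 in footprints and 8 in TE, and no call was a fall, although centring turned 1 mRNA value into a called fall. HTB1, for histone H2B, had 3247 and 2834 footprint RPKM when starved, against 1018 and 1060.3 with methionine, and gained 0.92 (SE 0.10, adjusted p = 3.6e-05) in TE. The linker histone gene HHO1 and the variant gene HTZ1 rose by 1.65 (SE 0.10) and 1.08 (SE 0.09) in footprints. The histone H4 genes HHF1 and HHF2 encode the same protein and their values are uncertain, since reads may be split between the copies. These histone values stood beside mRNA rises of cycle inhibitors and of most other cell cycle genes above. Cell cycle position was not measured.

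Oxidant defence genes rose, most of all in footprints. Of 26 tested, 21 rose in mRNA and 2 fell (17 and 5 after centring), and in TE 14 rose and 5 fell, for relative medians of 0.43 in mRNA and 0.94 in footprints. MXR1, which repairs oxidized methionine, had 1099 and 1164 mRNA RPKM when starved, against 27.2 and 29.7 with methionine (5.27, SE 0.08, adjusted p = 1.9e-12), while MXR2, which acts on the other stereoisomer, rose by 0.50 (SE 0.09), a call lost after centring. Catalase CTT1 rose by 2.73 (SE 0.14) in mRNA with a fall of 1.47 in TE. The mitochondrial thioredoxin gene TRX3 gained TE (0.97, SE 0.14). GRX4, for a glutaredoxin that takes part in iron sensing, rose in mRNA (1.55, SE 0.11) and fell in footprints, with 6.83 and 7.36 footprint RPKM when starved, against 16.2 and 18.8. Among chaperones HSP26 and HSP12 rose by 4.58 (SE 0.41) and 2.78 (SE 0.28), and CCT5, a subunit of the TRiC chaperonin that folds actin and tubulin, fell by 0.94 (SE 0.07). Of 28 chaperone genes, 8 rose and 15 fell, or 5 and 18 after centring.

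Metal and vitamin genes held some of the sharper contrasts. The zinc importer genes ZRT1 and ZRT2 were at 4.89 and 2.33 and at 3.77 and 2.99 footprint RPKM when starved, against 47.1 and 42.6 and 32.8 and 34.4 with methionine. ZRT1 fell by 2.22 (SE 0.08) in mRNA, and ZRT2 fell by 2.72 (SE 0.13) in TE. The vacuolar zinc transporter gene ZRC1 fell by 1.88 (SE 0.08) in footprints and its relative COT1 rose by 2.31 (SE 0.08). CRS5, a metallothionein gene, rose in mRNA (2.14, SE 0.15) and in TE (1.13, SE 0.24). BNA3, for kynurenine aminotransferase, had 1603 and 1584 mRNA RPKM when starved and 63.5 and 59.8 with methionine. The biotin importer gene VHT1 rose by 2.03 (SE 0.12) and BIO2, for the iron-sulfur enzyme biotin synthase, fell by 1.61 (SE 0.12). The vitamin B6 genes SNZ1 and SNO1 fell by 1.56 (SE 0.11) and 1.20 (SE 0.11).

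Genes that handle RNA mostly fell or moved with the median gene. Over all tested genes 60.2% rose and 26.7% fell in mRNA, and the counts for RNA polymerase II and mRNA decay were near those shares. Of 17 nuclear exosome and TRAMP genes, 4 rose and 9 fell in mRNA (0 and 14 after centring), with the helicase gene MTR4 at -2.66 (SE 0.09) and the exosome gene RRP4 lower in TE (-1.38, SE 0.07). Of 19 nuclear transport genes, 3 rose and 12 fell in mRNA, with the importin gene KAP123 at -2.37 (SE 0.08). Of 36 RNA polymerase II and Mediator genes, 24 rose and 9 fell in mRNA (13 and 15 after centring), where the Mediator gene NUT2 had 149 and 145 mRNA RPKM when starved, against 16.6 and 15.3 with methionine, and the shared polymerase subunit gene RPB5 fell by 1.92 (SE 0.09). Of 27 genes of mRNA decay, 17 rose and 2 fell in mRNA (7 and 12 after centring).

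Smaller lists added single contrasts. Over all tested genes 60.2% rose and 26.7% fell in mRNA (40.4% and 41.4% after centring), and the counts of several of these lists were near those shares. Drug efflux and sphingolipid genes, for example, had relative medians of 0.08 and -0.19. Of 12 phosphate genes, 9 rose and 2 fell in mRNA (5 and 4 after centring), led by VTC3, of polyphosphate synthesis (2.15, SE 0.09). Of 18 mating pathway genes, 15 rose and 2 fell in mRNA (11 and 3 after centring), among them DIG2, a repressor of the pathway (1.65, SE 0.07). Of 7 polyamine genes, 2 rose and 4 fell in mRNA: the antizyme gene OAZ1, whose product targets ornithine decarboxylase for breakdown, rose by 2.73 (SE 0.13) and the spermidine synthase gene SPE3 fell by 0.89 (SE 0.06). Of 29 cytoskeleton and septin genes, 20 rose and 3 fell in mRNA (8 and 11 after centring), with actin (ACT1) at -0.72 (SE 0.10). Of 17 drug efflux genes, 11 rose and 2 fell in mRNA (8 and 7 after centring), and the vacuolar transporter gene YCF1, which carries glutathione conjugates, lost TE (-1.29, SE 0.11). Of 23 sphingolipid genes, 12 rose and 6 fell in mRNA (7 and 13 after centring), with the ceramidase gene YPC1 at 1.18 (SE 0.10) and the fatty acid hydroxylase gene SCS7 at -0.87 (SE 0.09). Of 10 fatty acid oxidation genes, 8 rose and 1 fell in mRNA (4 and 1 after centring). Of 6 genes of gluconeogenesis and the glyoxylate cycle, 2 rose and 3 fell in mRNA (1 and 3 after centring), with the malate dehydrogenase gene MDH2 at 1.53 (SE 0.12) and the pyruvate carboxylase gene PYC1 at -2.26 (SE 0.08). Of 4 tested meiosis genes, 2 rose and 1 fell in mRNA (2 and 2 after centring), with the translation repressor gene RIM4 at 2.0 (SE 0.07).

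Within the sulfur lists not every member rose. MET31, for a DNA-binding cofactor of Met4, fell by 1.70 (SE 0.08) in mRNA, with 5.74 and 6.61 RPKM when starved, against 22.9 and 21.6 with methionine, whereas MET28, for another cofactor, rose by 7.87 (SE 0.12). In the SAM cycle and salvage list 4 genes rose and 5 fell among 10. ADI1, of methylthioadenosine salvage, rose by 3.81 (SE 0.07), and SAH1, which clears S-adenosylhomocysteine, fell by 1.52 (SE 0.11). SAM2 and SAM1 encode SAM synthetase, and SAM2 made up 71.6% and 71% of their footprints when starved, against 53.6% and 51.9%. Homoserine is made by HOM2 among others, and HOM2 fell by 1.09 (SE 0.15). IRC7, a cysteine desulfhydrase gene, fell in mRNA (-0.90, SE 0.13) and lost TE (-2.37, SE 0.14). The iron regulon list had 24 rises among 24 and a TE split of 6 rises, FIT3 among them (1.39, SE 0.30), and 12 falls, with FRE5 at -1.47 (SE 0.12); after centring the TE split was 8 and 9. In the ribosomal list RPL15B rose (0.91, SE 0.17) as 126 of 127 fell.

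The change in TE was graded by coding length. Genes of up to 300 bases had median TE of 1.18 and 1.18 in the starved samples, against 0.85 and 0.98 with methionine, and a median TE change of 0.49 in isolate 172 and 0.30 in isolate 600. Genes over 3000 bases had median TE of -0.91 and -0.90 when starved, against -0.61 and -0.53 with methionine, and a median change of -0.30 and -0.36. In between, the median change was lower in each longer bin in both isolates. Over 4881 genes with a coding length Spearman's rho between length and TE change was -0.394, and it was -0.378 without ribosomal protein genes and -0.221, -0.370 and -0.454 in the lowest, middle and highest mRNA levels when these were cut into 3 equal parts. The points share libraries and the length that scales every RPKM. Cycloheximide was in the lysis buffer, and the footprint libraries differed in depth between media. Their part in the length pattern was not tested. The part of length in the TE changes of lists, such as those of cell wall, histone and respiratory chain genes, was not tested either.

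**Figure D5:**
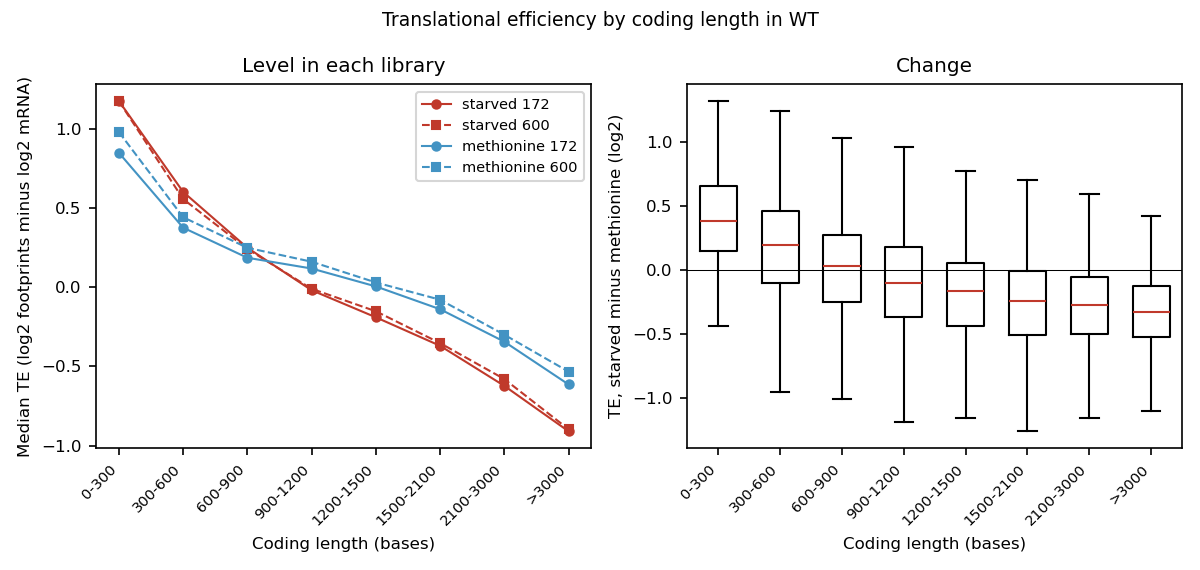
Translational efficiency by coding length (horizontal axis, bases): median level in each of the 4 WT samples (left) and change from methionine to starvation per gene (right; box, quartiles with the median; whiskers, up to 1.5 times the quartile range; outliers not drawn). In both isolates the starved curves cross those with methionine, above them for short genes and below them for long ones.

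Single genes departed far from this gradient. The largest TE fall was that of JIP5 (YPR169W), with a TE of -5.59 and -6.08 when starved, against -0.61 and -0.44 with methionine. SOH1, for a Mediator subunit, had 185 and 187 mRNA RPKM when starved, against 30.3 and 39.5, but 9.7 and 4.28 footprint RPKM, against 41 and 39. ECM32, a helicase gene, SYG1, and CBP2, for a mitochondrial splicing factor, changed by -3.29 (SE 0.11), -3.26 (SE 0.15) and -3.01 (SE 0.13) in TE. AAD6, for an aryl-alcohol dehydrogenase-like protein, rose by 5.05 (SE 0.15) in mRNA without a call in footprints (0.21). COS1, of a multigene family at chromosome ends, is uncertain: it was listed at 0 in mRNA of both libraries with methionine, against 18.8 and 20.6 RPKM when starved. On the other side FUN19, of unknown function, had 69.6 and 85.5 footprint RPKM when starved, against 5.29 and 6.56, and gained 1.57 (SE 0.15, adjusted p = 2.6e-05) in TE. The elongation factor gene ELF1 had mRNA at 112 and 100.2 RPKM when starved, against 106 and 98.7, and footprints at 162 and 184 RPKM, against 65 and 66.7, so that TE rose by 1.32 (SE 0.13). EDC2, an activator of decapping, rose in mRNA (1.95, SE 0.12) and in TE (0.92, SE 0.15). The open reading frames AI3 and BI2 lie in mitochondrial introns, whose transcripts are read by the mitochondrion's own ribosomes, and gained 1.97 (SE 0.31) and 1.31 (SE 0.33) in TE, the second not called without isolate 172 with methionine. Among genes whose isolates were separated between media, YBR191W-A, YIL024C, YDL183C, YDR034W-B and YDR524C-B completed, with CWP2 above, the 10 largest TE rises outside the named groups at 3.35, 1.62, 1.36, 1.18 and 1.18. With a pseudocount of 0.1 YBR191W-A was not called (1.73).

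Of all 4888 genes 225 rose at least 4-fold in mRNA (4.6%), and their share was higher near chromosome ends, a description without a test. Within 15000 bases of the first or last annotated gene, 10 of 37 tested genes rose at least 4-fold in mRNA (27%), and between 15000 and 30000 bases 21 of 126 did (16.7%). Beyond 60000 bases the count was 169 of 4328 (3.9%). Subtelomeric genes often belong to families with near-identical copies, for which counting is uncertain. On the left arm of chromosome XII, neighbouring genes rose side by side, several of them for sulfur use. From MHT1 to YCT1, 7 tested genes in a row rose at least 8-fold (reference build R64). They are MHT1 (chromosome XII, 16639 to 17613), for a methyltransferase that uses S-methylmethionine, its permease gene MMP1, the glutathione transferase gene GTT2, YLL058W, the sulfonate dioxygenase gene JLP1, YLL056C and the cysteine transporter gene YCT1 (30109 to 31704). GTT2 had 234 and 244 mRNA RPKM when starved, against 10.5 and 9.4 with methionine, and YLL056C, of unknown function, had 258 and 288, against 5.25 and 4.28. The next tested genes toward the centromere, YLL053C, AQY2 and FRE6, rose by 1.40 (SE 0.10), 1.51 (SE 0.10) and 2.08 (SE 0.06), where YLL053C and AQY2 overlap and may share reads, and COF1, for cofilin, did not pass (-0.08, SE 0.09, adjusted p = 0.41; -0.48 and called after centring). Of windows of 5 neighbouring tested genes, the others with at least 3 rises of 8-fold lay on chromosome XV around FIT2, FIT3 and FRE5 and around BDS1, a sulfatase gene (7.95, SE 0.16).

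A set of genes held still on the scale of the tables. In 101 genes the 95% interval of the change lay within 0.3 of 0 (log2) in mRNA and in footprints. CDC48, for the segregase that feeds the proteasome, had 464 and 467 mRNA RPKM when starved, against 455 and 402, and TUB2, for beta-tubulin, had 303 and 285, against 293 and 307. Neither passed the test, at 0.12 (SE 0.08, adjusted p = 0.16) for CDC48 and -0.03 (SE 0.07, adjusted p = 0.67) for TUB2, but CDC48 did without isolate 172 with methionine (0.21), and after centring CDC48 stood at -0.28 and TUB2 at -0.44, both called. The vacuolar pump gene VMA5 and the proteasome gene RPT1 were in the same set. A steady RPKM says nothing of the amount of RNA per cell.

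The same comparison in the variant strains shows where the WT response differs. Against D87E, no gene passed in the difference between the starvation responses by limma in mRNA, footprints or TE (0% of 4888 in each), although 231, 574 and 521 genes had an unadjusted p below 0.05. Leaving out the starved sample of isolate 600 gave 11 genes in footprints and 23 in TE, and leaving out isolate 172 with methionine gave 9 in TE. Against E85Q, 2954 genes passed in mRNA (60.4%), 2025 in footprints (41.4%) and 1069 in TE (21.9%). Of those in mRNA, the WT response was more positive for 2375 (48.6%) and more negative for 579 (11.8%), or 986 (20.2%) and 1342 (27.5%) after centring. In footprints it was more positive for 1352 (27.7%) and more negative for 673 (13.8%), or 774 (15.8%) and 1107 (22.6%) after centring. In TE it was more positive for 217 (4.44%) and more negative for 852 (17.4%), or 389 (7.96%) and 373 (7.63%) after centring. The TE count was 385 without isolate 600 with methionine and 688 without starved isolate 172. FIT2 rose by 4.58 (SE 0.16) more in WT than in E85Q in mRNA, LSO1, of iron starvation, by 4.28 (SE 0.52) and GRE1 by 4.25 (SE 0.85) in footprints. The WT minus E85Q difference was -3.57 (SE 0.35) for RPS9A and -2.99 (SE 0.35) for RPS22B in mRNA. PDC6 rose by 1.90 (SE 0.24, adjusted p = 1.7e-04) more in WT. The WT response was lower for ENO1 (-0.55, SE 0.17, adjusted p = 0.015), and the difference did not pass for GLK1 (-0.21, SE 0.21, adjusted p = 0.41) or SER33 (-0.04, SE 0.09, adjusted p = 0.72).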

How the data were processed

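Matched mRNA and footprint libraries (2 isolates in each medium for each of 3 Dim1 genotypes) came, per the labels' protocols, from filtered, snap-frozen cells lysed with cycloheximide, digested with RNase I, depleted of rRNA and sequenced on a HiSeq 4000. The authors deposited RPKM values per gene; per the submitters' processing notes Bowtie 1.1.2, TopHat2 2.1.1 and the build sacCer3 were used, and the file names state masked positions and footprints of 18 to 34 nt. The counting tool, the masking and the reads that make up the library total are not given in the sources used here. All deposited value columns were matched to samples by name. Reads per library were estimated from the RPKM steps of low values, with gene length reduced by an offset of 33 bases. Of those values 69.7% to 78.8% came out within 0.05 of whole reads, so no count test was run.

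RPKM was transformed as log2(RPKM + 1), and TE is the footprint minus the mRNA value of a sample. Entries with a mean RPKM of at least 5 in both tables were kept. limma 3.58.1 in R 4.3.3 was fitted to the 12 libraries of an assay with 6 group means and a trended prior, with two-sided Benjamini-Hochberg adjusted p over 4888 genes. It was tested on simulated data, in which 97% of 67 changes of 1 and 80.3% of 66 changes of 0.5 (log2) were recovered in mRNA. Far fewer genes were changed there than were called in the real data, so these rates may not hold for this comparison. An exact permutation test of 2 against 2 cannot go below p = 0.333. Other tables were made with Python 3.11.15, numpy 2.4.6, pandas 2.3.3 and scipy 1.17.1. Gene names come from the tables and positions from RefSeq R64. Tables of sequence were not used here.

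The same isolates were grown in both media, which pairs them by design; the deviations of an isolate from its group mean in the 2 media correlated at r = -0.183 for mRNA, -0.024 for footprints and -0.021 for TE over 4888 genes. The labels speak of biological replicates without saying whether cultures were independent beyond the isolate, so p-values measure the spread between these samples. The members and gene lists were chosen with earlier results of these data known. Named were the 10 largest called rises and falls outside the sulfur, iron and ribosome lists and the 3 largest within them for each measure, where isolates were separated between media, the largest called rise and fall of each list in mRNA and in TE, and the 3 largest differences between genotypes in each direction. Results on a few genes that this rule names are not reported here. All other genes in the text were chosen after their values were seen or are partner isozymes of a named gene. Alternatives were other pseudocounts (0.1, 10), no filter or a mean RPKM of 20, median-centring, WT libraries alone, an isolate block, and each library left out.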

Additional observations from a re-analysis of the deposited data

Results flagged for a closer look

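The starvation response differed between WT and E85Q by the limma interaction test for 2954 genes in mRNA, 2025 in footprints and 1069 in TE (adjusted p below 0.05 over 4888 genes), which is why these counts are singled out. Within mRNA the largest differences in the WT response over the E85Q response (log2) were 6.48 for COS1, 4.58 for FIT2 and 4.28 for LSO1 among the more positive, and -3.57 for RPS9A, -2.99 for RPS22B and -2.77 for YBR191W-A among the more negative. Within footprints they were 4.76 for LSO1, 4.25 for GRE1 and 4.24 for FIT2, and -3.34 for RPS9A, -2.64 for RPS22B and -2.59 for RPS2. Within TE they were 4.92 for YBR191W-A, 3.43 for YDR154C and 1.57 for RPS27B, and -8.53 for COS1, -2.40 for GRX4 and -2.31 for ECM32. The YDR154C difference in TE was not called when isolate 172 with methionine or either starved isolate was left out (2.56 to 3.53, adjusted p = 0.087 to 0.127, limma). COS1 belongs to a family of near-identical genes and was listed at 0 in mRNA of WT with methionine, and ribosomal protein genes have close copies, so their single values are uncertain.

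Among the 1416 entries not tested because their mean was below 5 RPKM in the mRNA table, the footprint table or both, 20 had both starved mRNA values above 5 RPKM and over 10 times both values with methionine. Of these, 12 were below 5 RPKM in the footprint table alone and 8 in both tables. In footprints 7 entries did so, of which 2 were below in the footprint table alone, 1 in the mRNA table alone and 4 in both.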

How the results depend on the processing

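The calls rest on 2 isolates a group, and RPKM tables set a scale that median-centring changes most. Median-centring gave 2025 falls in mRNA, 1432 rises and 1033 falls in TE, and for WT minus E85Q 986 rises and 1342 falls in mRNA, 774 and 1107 in footprints and 389 and 373 in TE; lists with most members up were 13 in mRNA and 7 in TE, and with most members down 1 in TE, against 26, 4 and 9 without it. A mean RPKM of at least 20, which tests fewer genes, gave 2773 calls and 1720 rises in mRNA, 1595 rises in footprints, and 1707 calls and 970 falls in TE. Lists with a higher share in both starved libraries numbered 19 in mRNA and 15 in footprints without ribosomal protein genes, against 34 and 29 with them, and with a lower share 26 and 30, against 13 and 18. The isolate, used as a replicate block since it pairs the media, gave 4205 calls in mRNA, 4098 in footprints and 2673 in TE, and for WT minus E85Q 2932, 2074 and 1056; of 771 gene values it changed the call of 14, CWP2 in mRNA among them (0.41, adjusted p = 0.079, limma). Leaving out 1 WT library at a time gave 4043 to 4124 calls in mRNA, 3793 to 3944 in footprints and 1954 to 2234 in TE. For WT minus E85Q the range was 2530 to 2897 in mRNA, 1363 to 2010 in footprints (falls 438 to 720, lowest without isolate 172 with methionine) and 385 to 878 in TE (rises 50 to 176, falls 335 to 742). The lowest TE count came without isolate 600 with methionine, and without starved isolate 172 it was 688; TE rises were 136 without isolate 172 with methionine and 115 without starved isolate 172. For WT minus D87E it was 0 to 11 in footprints (rises 0 to 10, falls 0 to 1) and 0 to 23 in TE (rises 0 to 22, falls 0 to 9), highest without starved isolate 600, and TE had 9 falls without isolate 172 with methionine. TE lists with most members up were 2 to 3 and down 3 to 5 under the same omissions.

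Of 8067 comparisons of a gene value with an alternative, 7740 kept direction and side of the threshold, 228 lost the call, 82 gained it and 17 changed sign. Under median-centring the mRNA values became -0.28 for CDC48, -0.35 for ELF1, -0.33 for GAP1, -0.061 for HSP150, -0.27 for OPI3, -0.0031 for PMP3, -0.27 for RPT1, -0.22 for SCW4, -0.31 for VMA5 and -0.16 for YDL183C, and the URA8 footprint value -0.20. With a pseudocount of 10 the TE values became -0.21 for DIP5, -0.49 for GTO1, 0.24 for MET28, 0.015 for MHT1 and -0.20 for RKI1, and with 0.1 that of LSO1 became -0.91. The cause of these changes was not tested. Analyses of sulfur residues and of promoter motifs were not run, since no sequences were used here.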

Other observations

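Several untested entries had high mRNA in starved cells and few footprints, and were left out because the footprint mean over all libraries was below 5 RPKM. YOL163W, an uncharacterised permease-like gene, had 1381 and 1683 mRNA RPKM when starved, against 1.57 and 2.70 RPKM with methionine, but 3.62 and 2.87 footprint RPKM when starved, against 0.047 and 0.48 RPKM. Its neighbour YOL162W had 253 and 296 mRNA RPKM when starved, against 0.749 and 0.709 RPKM, and 0.154 and 0.14 footprint RPKM, against values listed at 0 with methionine. VBA2, for a vacuolar permease of basic amino acids, had 444 and 476 mRNA RPKM when starved, against 10.1 and 9.84 RPKM with methionine, and 1.61 and 1.72 footprint RPKM, against 1.92 and 2.71 RPKM. GDH3, the minor paralog of the glutamate dehydrogenase gene GDH1, which fell, had 62.5 and 64.5 mRNA RPKM when starved, against 1.54 and 1.34 RPKM with methionine, and 11.5 and 12.6 footprint RPKM, against 0.245 and 0.43 RPKM. No test was made on these entries.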
